A study of Gasterosteus aculeatus with 16 samples.

Results

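The expression of 5 nuclear genes was followed in whole embryos of threespined stickleback (Gasterosteus aculeatus) whose mothers had or had not been exposed to simulated predation risk: MRPL14 (ENSGACG00000004984), MRPL48 (ENSGACG00000018902), MRPL21 (ENSGACG00000019780), MRPS28 (ENSGACG00000019939) and NGRN (ENSGACG00000007860). The 5 are among 17440 genes with a logCPM value (log2 of read counts scaled to the library total) and 22456 gene models with an FPKM value. They were chosen from the genes that the study listed as differing between the same 2 groups of clutches, so the difference between the groups is what selected them and is given below as a description. Calls from the fit over all genes are counted only to place the 5 beside the rest, and they are no independent evidence of a difference. Mitochondria hold a small genome and translate its messenger RNAs on ribosomes of their own. Apart from the ribosomal RNAs, which the mitochondrial genome encodes, these ribosomes are built from proteins that are encoded in the nucleus, made in the cytosol and imported, and their products are core subunits of the respiratory chain and of ATP synthase. MRPL14, MRPL21 and MRPL48 are proteins of the large mitoribosomal subunit and MRPS28 is a protein of the small subunit. NGRN (neugrin) was first described in connection with neurite outgrowth, and in human cells it is needed for the 16S ribosomal RNA of the mitochondrial large subunit.

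Each library was made from 10 whole embryos of 1 mother, pooled at 3 days post-fertilization. In the first group 8 wild-caught mothers had been chased with a model predator before spawning (maternally-stressed embryos), and in the second 8 wild-caught mothers had not (embryos of control mothers). The clutches carry labels of 2 numbers, such as 8_10, whose meaning is not given. Exposure was given to whole tanks of females. Which mothers shared a tank is likewise unknown, so an effect of the tank cannot be told apart from exposure. Whole embryos mix all tissues, so more cells of a type and more RNA per cell cannot be told apart in any value below.

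All 5 genes occupy short loci, on the BROADS1 assembly. MRPL14 lies on linkage group VI at groupVI:5891885-5894361, a locus of 2477 nucleotides. MRPL48 lies at groupVII:1553780-1555116 and spans 1337 nucleotides. MRPL21 lies at groupIX:19478877-19479491, and its 615 nucleotides make it the shortest of the 5. MRPS28 is on the same linkage group at groupIX:20064540-20065672, 1133 nucleotides long and 585048 nucleotides from MRPL21. NGRN lies at groupXII:10099344-10100498 and spans 1155 nucleotides. These spans run from the first to the last base of the annotated locus, introns included, and MRPL14 is longer than 21.8% of the 17440 genes, while MRPL21 is longer than 2.25% of them. The locus of MRPS28 overlaps that of its neighbour ENSGACG00000019932 by 16 nucleotides, and no other locus of the 5 overlaps another gene model. The files give Ensembl identifiers only, and the symbols are those of the study's gene list.

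Per length of transcript, MRPL14 was the most abundant of the 5 and NGRN the least. Over all 16 clutches the level of MRPL14 was 68.2 ± 8.07 FPKM (SD), above that of 93.6% of the gene models with an FPKM above 0 in at least 2 clutches. MRPL48 followed at 38.0 ± 4.28 FPKM, MRPS28 at 25.5 ± 4.28 FPKM, MRPL21 at 20.7 ± 4.25 FPKM and NGRN at 15.2 ± 2.1 FPKM, which is above 78.2% of the models. The lowest MRPL14 value of any clutch, 54.6 FPKM, exceeded the highest MRPL48 value, 45.6 FPKM. The remaining neighbours in that order overlapped over clutches, although within a clutch MRPL48 exceeded MRPS28 in 16 of 16, MRPS28 exceeded MRPL21 in 15 of 16 and MRPL21 exceeded NGRN in 16 of 16. The order between genes is less sure than the order between clutches: the deposited FPKM of MRPL14, MRPL48 and MRPL21 lay outside the bounds deposited with it in all 16 clutches, at a median of 1.41, 1.41 and 1.37 times the middle of those bounds, whereas for MRPS28 the ratio was 1.00 and for NGRN 1.17.

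Among the proteins of the large subunit, MRPL14 and MRPL48 had the same number of exposed clutches above every control clutch, and MRPL21 had fewer. For MRPL14 the 8 clutches of control mothers ran from 40.1 to 46.4 CPM (read counts scaled to a common library total), with a median of 44.2. In maternally-stressed embryos they ran from 42.6 to 58.4 CPM, with a median of 54.3. Clutch 8_10, at 42.6 CPM, was the single exposed clutch inside the control range, and the other 7 lay above every control clutch. The means were 53.4 ± 5.26 CPM (SD, n = 8) and 43.2 ± 2.45 CPM (SD, n = 8). These values rest on between 368 and 697 reads of MRPL14 per clutch.

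MRPL48 showed the same arrangement at a lower level. Its control clutches ran from 30.0 to 36.6 CPM (median 34.1) and its exposed clutches from 33.3 to 42.2 CPM (median 40.02). Clutch 8_10 was again the lowest of the exposed clutches and the single one below the highest control clutch. The means were 39.3 ± 2.96 and 33.4 ± 2.73 CPM (SD, n = 8 each).

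MRPL21, the third member of the large subunit, varied most between clutches. Control clutches held 13.2 to 19.3 CPM (median 15.9) and exposed clutches 14.6 to 26.1 CPM (median 20.1). In the exposed group the values were spread wide, with 8_10 and 3_10 at 14.6 and 16.3 CPM, inside the control range, 24_28 just below the highest control clutch at 19.2 CPM, and 5 clutches above all controls. The SD between exposed clutches was 19.4% of the mean, where the reads counted would give 6.55% from counting alone. The MRPL14 control clutches came closest to counting error, with an SD of 5.66% of the mean against 4.56%.

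MRPS28, the protein of the small subunit, ran from 16.3 to 24.0 CPM in control clutches (median 21.6) and from 22.6 to 31.2 CPM in exposed clutches (median 26.9). All 8 exposed clutches lay above the control median, and 6 lay above every control clutch. The 2 that did not were again 8_10, at 22.6 CPM, and 3_10, at 23.6 CPM. The lowest value of all was that of control clutch 5_14.

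NGRN held between 17.5 and 23.4 CPM in control clutches (median 19.7) and between 21.2 and 28.5 CPM in exposed clutches (median 27.2). Clutch 6_21 was the lowest of the exposed clutches at 21.2 CPM and 3_10, also low for MRPL21 and MRPS28, was next at 22.9 CPM, while 8_10, the lowest clutch of the other 4 genes, stood at 25.2 CPM, above all controls. In total 6 exposed clutches lay above every control clutch, and 5 of them fell between 27.2 and 28.5 CPM.

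**Figure D1:**
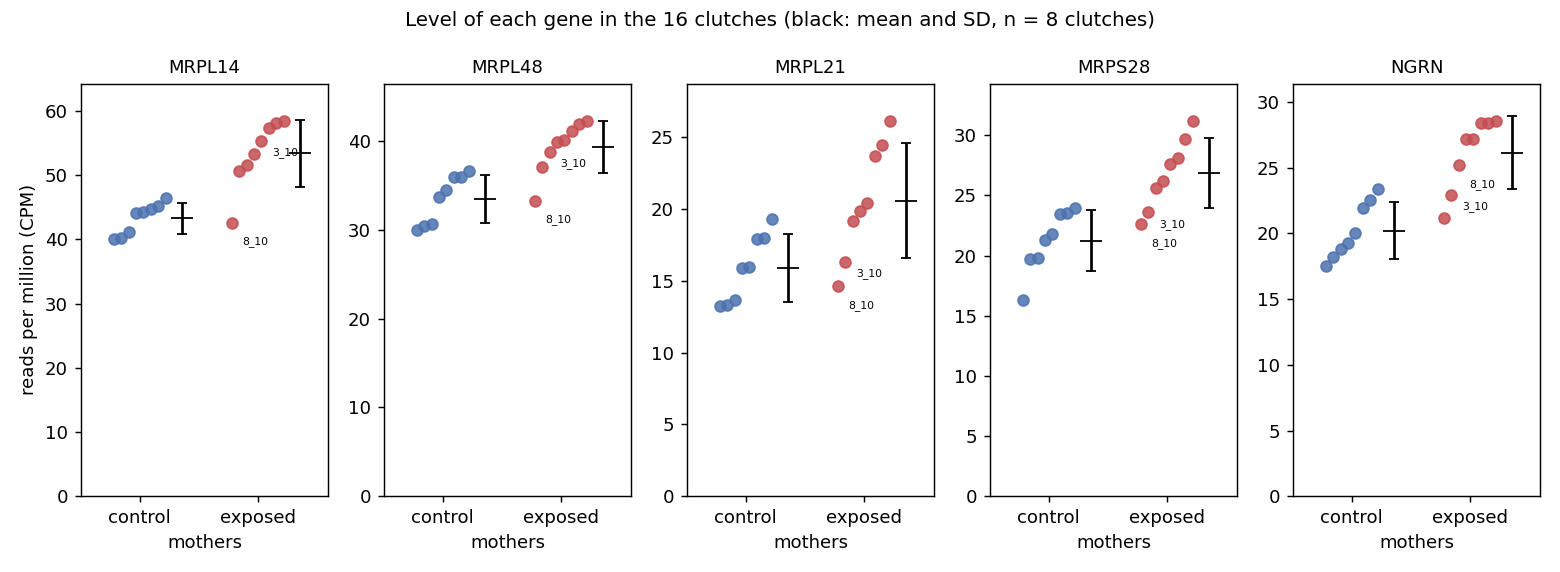
Level of each of the 5 genes in CPM (vertical axes, each starting at 0) in 8 clutches of control mothers (blue) and 8 of predator-exposed mothers (red), with clutches 8_10 and 3_10 named and the mean and SD in black. Most exposed clutches sit above the control range in every panel (7, 7, 5, 6 and 6 of 8 for MRPL14, MRPL48, MRPL21, MRPS28 and NGRN), and 8_10 sits inside it for the 4 mitoribosomal genes.

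As log2 differences of logCPM between group means, the exposed clutches were higher by 0.28 (SE 0.06) for MRPL14, 0.22 (SE 0.06) for MRPL48, 0.31 (SE 0.11) for MRPL21, 0.30 (SE 0.08) for MRPS28 and 0.33 (SE 0.08) for NGRN. The logCPM values carry a prior of 2.77 CPM, which shrinks them, and as plain ratios of mean CPM the differences came to 1.23-, 1.18-, 1.29-, 1.26- and 1.29-fold in the same order. The lowest and the highest of these differences, of MRPL48 and NGRN, were not tested against each other. The median over all 17440 genes was −0.05, so that the 5 genes stood above the bulk of the transcriptome by slightly more than their own values. On log2(FPKM + 1) the differences were smaller, 0.23 for MRPL14, 0.18 for MRPL48, 0.27 for MRPL21, 0.22 for MRPS28 and 0.25 for NGRN, beside a median over all models of −0.08.

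MRPL14 and NGRN, 2 of the 5 genes and 1 of the 4 mitoribosomal genes, passed a false discovery rate (FDR) of 0.1 on logCPM (limma, two-sided, Benjamini-Hochberg adjustment over all genes). In the same fit 0.516% of all genes passed in either direction and 0.103% passed as higher in exposed clutches; since the genes were chosen on this contrast, nothing is read from their share. On FPKM 0 of the 5 passed an FDR of 0.05, where 0.309% of the gene models passed in either direction and 0.0428% as higher. The calls were lost for both genes, and 0 of the 5 passed, under median-of-ratios scaling (15 of all genes passing), with the second number of the clutch label as replicate block (47 passing) and with a covariate for structured RNA (0 passing). The structured RNA genes, described below, were themselves listed by the study for their difference between the groups. That covariate thus carries part of the exposure contrast, and nothing is read from the 0 calls with it. Both calls, of MRPL14 and NGRN, were kept with voom on read counts (81 of all genes passing). They were also kept among genes with a mean CPM of at least 1 (104 of 15995 passing). The same held with library totals that left out reads of the mitochondrial genome and structured RNA (67 passing). With clutch weights all 5 genes passed, beside 2491 of all genes. The calls also moved with single clutches. Leaving out exposed clutch 8_10 or 3_10, all 5 genes passed on logCPM, and leaving out control clutch 15_14, 4 passed, all but MRPL21. The calls over all 17440 genes grew with them, from 90 to 1087, 1233 and 746 in the same order. Leaving out control clutch 5_21 or exposed clutch 26_28, MRPL14 alone passed, and leaving out 6_21 left the count at 2. Leaving out any of the remaining 10 clutches, 6 control and 4 exposed, 0 of the 5 passed.

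The second number of a clutch label is shared by exposed and control clutches in 3 cases. Where it is 5, the exposed clutch was higher for all 5 genes, as for MRPL21 with 24.5 CPM against 13.7 CPM. Where it is 28, the mean of 3 exposed clutches exceeded the 1 control clutch for all 5, with 24_28 the exception among single clutches, at 19.2 CPM of MRPL21 against 19.3 CPM. Where it is 21, the exposed clutch was higher for the 4 mitoribosomal genes and lower for NGRN, at 21.2 CPM against 21.9 CPM. Label number 14 occurs in control clutches only (4 of them) and number 10 in exposed clutches only (3 of them, 8_10 and 3_10 included), and for these it cannot be told apart from exposure.

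Clutches of the same group also differed in how much of these genes they expressed, and the 4 closest pairs were all between mitoribosomal genes. To look at this within groups, the mean of each group was subtracted from each gene. Over the 16 clutches the Pearson correlation of such deviations was 0.73 for MRPL48 with MRPS28, 0.72 for MRPL14 with MRPL48, 0.70 for MRPL21 with MRPS28 and 0.69 for MRPL48 with MRPL21. MRPL14 correlated at 0.44 with MRPL21 and at 0.44 with MRPS28. NGRN correlated at 0.13 with MRPL48, 0.18 with MRPL14, 0.33 with MRPL21 and 0.52 with MRPS28, the last above both of those of MRPL14. Whether NGRN differs from the mitoribosomal genes in this was not tested. The median over the 10 pairs was 0.48, with all 10 above 0. Over all pairs of 9789 genes with a mean of at least 10 CPM the median was 0.12, and the middle 50% ran from −0.20 to 0.43. Those genes have loci of every span, whereas the 5 fall in the 2 shortest of 10 bins of span, described below. The 10 pairs were not set beside pairs of like span. Subtracting group means also need not make the pairs independent of the choice of the 5 by exposure. Both limits hold for all pairs below.

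**Figure D2:**
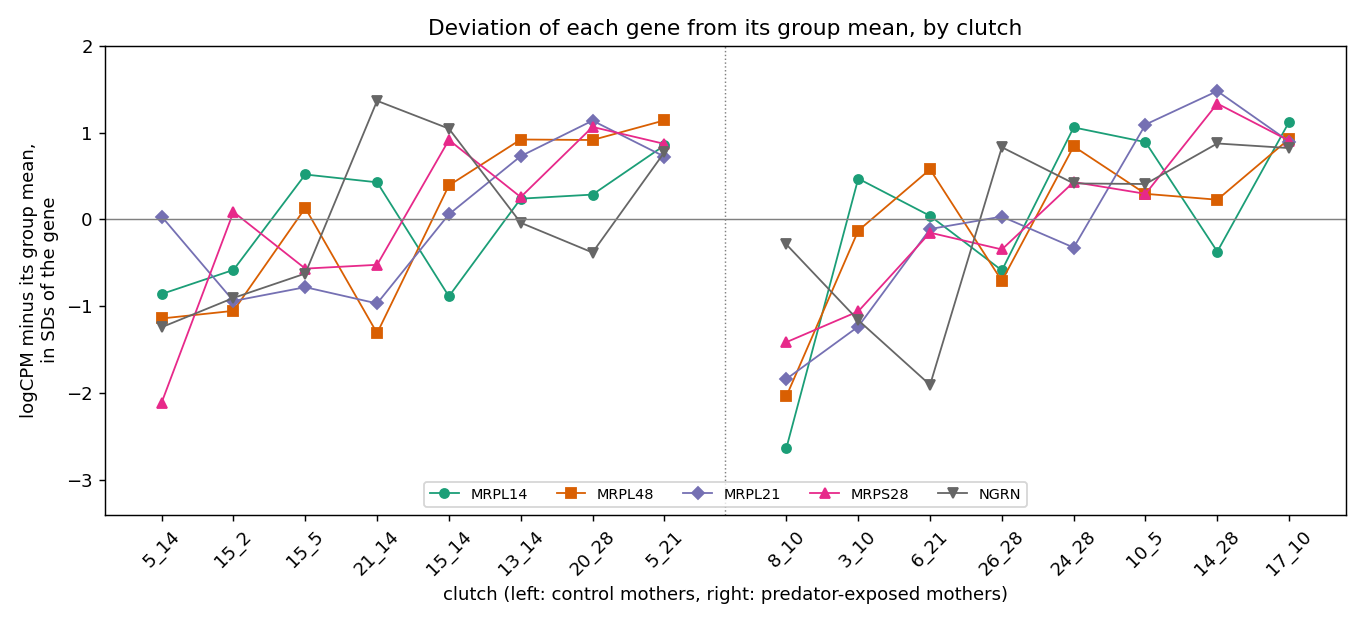
Deviation of each gene from the mean of its group (vertical axis, in SDs of that gene's logCPM) by clutch, with clutches of control mothers on the left and of predator-exposed mothers on the right, each ordered by the mean of the 5 genes; lines only join the points of a gene. The 4 mitoribosomal genes dip together in 8_10, between −2.63 and −1.41 SD, and NGRN dips instead in 6_21, at −1.91 SD.

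Within a group of 8 clutches, 20 correlations were computed, 10 in each group, with exact permutation tests over all pairings and Benjamini-Hochberg adjustment over the 20. In maternally-stressed embryos the correlation of MRPL14 with MRPL48 was 0.92 (exact permutation p = 0.00466, adjusted p = 0.0466), with a Spearman rho of 0.88 (exact permutation p = 0.00724, adjusted p = 0.145). MRPL21 and MRPS28, which lie on the same linkage group, also reached 0.92 (exact permutation p = 0.00258, adjusted p = 0.0466), with a rho of 0.79 (exact permutation p = 0.0279, adjusted p = 0.186). Both pairs passed 0.05 on Pearson's r and missed it on rho, and no other pair passed on either. Without the 2 clutches farthest from the median of the first gene the coefficients fell to 0.64 and 0.79, and without 8_10 alone they were 0.72 and 0.86.

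In embryos of control mothers the closest pairs were other ones. MRPL48 correlated at 0.79 with MRPL21 (exact permutation p = 0.0297, adjusted p = 0.141; rho 0.83, exact permutation p = 0.0154, adjusted p = 0.154) and at 0.73 with MRPS28 (exact permutation p = 0.0352, adjusted p = 0.141; rho 0.69, exact permutation p = 0.0694, adjusted p = 0.231). MRPL14 and MRPL48, at 0.92 in the exposed group, correlated at 0.46 here, and whether the 2 coefficients differ was not tested. The median of the 10 pairs was 0.39 in control clutches and 0.57 in exposed clutches, or 0.39 in the latter without 8_10, when 2 pairs fell slightly below 0, MRPL14 with MRPL21 (−0.05) and MRPL48 with NGRN (−0.05). The median over all gene pairs was 0.12 in control and 0.15 in exposed clutches, and the upper quartile was 0.455 and 0.525. The median of the 10 pairs thus lay below that quartile in control clutches and slightly above it in exposed clutches. It exceeded 70.5% of all gene pairs in control and 78.0% in exposed clutches. Values over all gene pairs were not computed without 8_10.

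**Figure D3:**
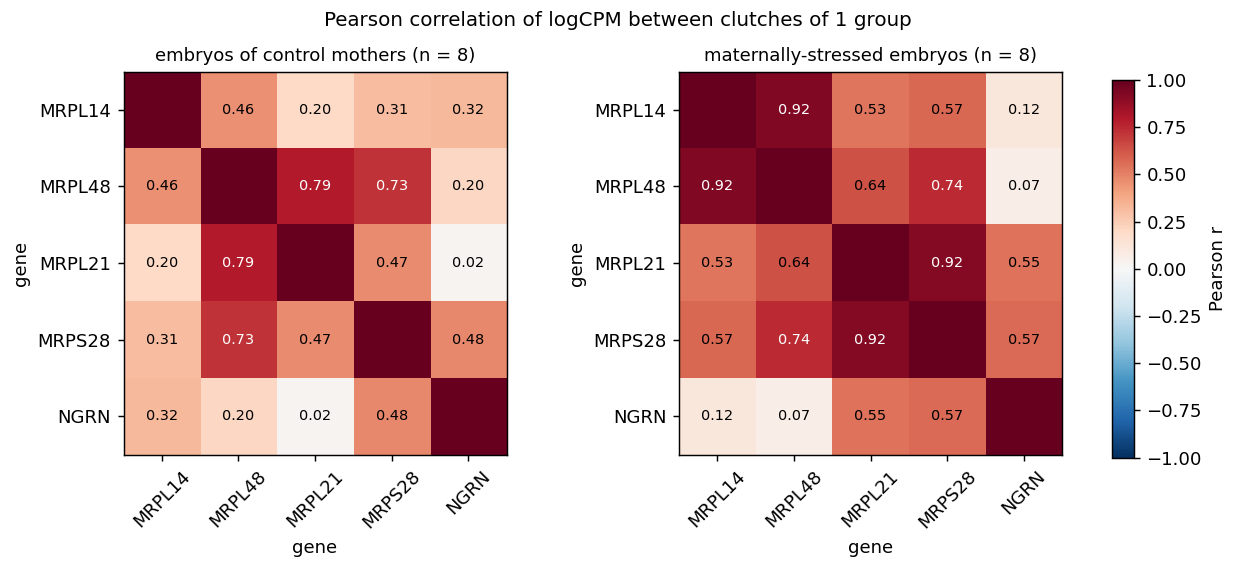
Pearson correlation of logCPM between clutches for each pair of the 5 genes (rows and columns), in 8 clutches of control mothers (left) and 8 of predator-exposed mothers (right), on a colour scale from −1 to 1. All 20 coefficients are above 0, the highest are 0.92 for MRPL14 with MRPL48 and for MRPL21 with MRPS28 in exposed clutches, and the lowest belong to NGRN, 0.02 with MRPL21 in control and 0.07 with MRPL48 in exposed clutches.

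How tight the 5 genes run together depended on how the libraries were scaled. With libraries scaled by the median of gene ratios in place of their total, the median correlation of the 10 pairs was 0.80, from 0.64 to 0.90, while the median over all gene pairs was 0.02. With the balance of short and long loci in each library, described below, held constant, it was 0.27, from −0.26 to 0.69, beside 0.04 over all pairs. The median of the 10 pairs exceeded 98.8% of all gene pairs under median-of-ratios scaling and 74.8% with the balance held constant.

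The 50 genes whose clutch profile was most like that of the 5 had, at the median, shorter loci and higher levels than the rest. Each of the 9784 other genes with a mean of at least 10 CPM was correlated with the mean of the 5 standardised profiles, after subtracting group means, over the 16 clutches. The highest was ENSGACG00000016938, at 0.92, a gene of 660 nucleotides and 197 ± 24.2 CPM (SD). ENSGACG00000009889 came next, at 0.91, with 591 ± 68.9 CPM and a locus of 4784 nucleotides. The lowest were ENSGACG00000006570, at −0.89, with a locus of 11139 nucleotides, and ENSGACG00000017333, at −0.88, with 12776 nucleotides. None of these 4 has a symbol in the tables used here. The differences by exposure of the first 3 were 0.18 (SE 0.08, adjusted p = 0.263), 0.20 (SE 0.07, adjusted p = 0.184) and −0.27 (SE 0.08, adjusted p = 0.148) on the log2 scale by limma, and that of the fourth was −0.10 (SE 0.12, adjusted p = 0.707), so none passed. Over the 50 genes with the highest coefficients the median span was 2329 nucleotides and the median level 124 CPM, against 5636 nucleotides and 32.1 CPM over all 9784, and over the 50 with the lowest it was 12082 nucleotides and 27.7 CPM.

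Among genes with a symbol, all of them from the study's list of differing genes, the closest was COX7C. This nuclear-encoded subunit of cytochrome c oxidase reached 0.87, rank 9 of the 9784 genes. RBX1, the RING protein of cullin ubiquitin ligases, followed at 0.86, rank 11. MED9 came next at 0.83, just ahead of NDUFB8, an accessory subunit of complex I, at 0.83 (rank 23). SPCS3 and NDUFA4, each at 0.79, preceded UQCRQ, a subunit of complex III, at 0.78 (rank 52). RANGRF (0.78) and UBE2C (0.77) followed. The study's list names 10 nuclear genes of the respiratory chain, looked up here after the profiles were seen. Their coefficients ran from 0.25 for COX4I2 to 0.87 for COX7C with a median of 0.68, beside a median of −0.31 over all 9784 genes. That background changes with locus span, and all 10 loci fall in the 4 shortest of 10 bins of span, described below. From the shortest of these 4 bins to the longest, the median over genes was 0.06, −0.03, −0.09 and −0.19. The 10, like the 5, were on that list because they differed between the same groups. The balance of short and long loci, described below, moved with the 5 genes and had medians of −0.18 in control and 0.09 in exposed clutches. Subtracting group means therefore need not make the coefficient independent of that choice, and what the choice adds to it was not tested. The longest locus of the 10, that of COX4I2, spans 4217 nucleotides.

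Transcripts of the mitochondrial genome itself, summed over the 16 of its genes with a logCPM value, made up 0.692 ± 0.0918% of reads in control clutches and 1.14 ± 0.380% in exposed clutches (SD, n = 8 each). The sum includes the 7 genes given below that the study listed for their difference, so the group difference in this share is a description. The mean profile of the 5 genes correlated with that share at 0.54 in control clutches (exact permutation p = 0.172, adjusted p = 0.346 over 8 relations; rho 0.50, exact permutation p = 0.216, adjusted p = 0.486) and at 0.54 in exposed clutches (exact permutation p = 0.173, adjusted p = 0.346; rho 0.62, exact permutation p = 0.115, adjusted p = 0.460). Without the 2 clutches farthest from the median share the coefficients were −0.04 and 0.51, so in control clutches the relation rests on those 2. Taken over both groups around their own means it was 0.49 on logCPM and −0.0455 on FPKM. Of the 13 protein genes of the mitochondrial genome, the 7 with a symbol, also listed by the study for their difference, were all higher in exposed clutches, and 2 passed an FDR of 0.1, CYTB (log2 difference 0.62, SE 0.15) and COX2 (0.88, SE 0.15).

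The balance between short and long loci differed between libraries and moved with the 5 genes. For each clutch it was taken as the median logCPM of the 979 shortest of the genes with at least 10 CPM minus that of the 979 longest, the 5 genes left out. It ran from −0.27 to 0.07 in control clutches (median −0.18) and from −0.26 to 0.18 in exposed clutches (median 0.09). The lowest exposed clutches were 3_10, at −0.26, and 8_10, at −0.19. Clutch 8_10 was the lowest exposed clutch for all 4 mitoribosomal genes, whereas 3_10 was low for MRPL21, MRPS28 and NGRN and stood at 55.3 CPM for MRPL14, above the exposed median, and at 38.8 CPM for MRPL48. In exposed clutches the mean profile of the 5 genes correlated with it at 0.89 (exact permutation p = 0.00298, adjusted p = 0.0238 over 8 relations), with a rho of 0.74 (exact permutation p = 0.0458, adjusted p = 0.367) and 0.90 without the 2 farthest clutches. In control clutches the coefficient was 0.62 (exact permutation p = 0.106, adjusted p = 0.346; rho 0.48, exact permutation p = 0.243, adjusted p = 0.486), or 0.52 without the 2 farthest. The measure was made after the data were seen, and the adjustment over 8 relations does not allow for that choice. Although left out of it, MRPL48, MRPL21, MRPS28 and NGRN have loci as short as those of the 979 shortest genes. The coefficient was not set beside that of other genes with short loci.

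**Figure D4:**
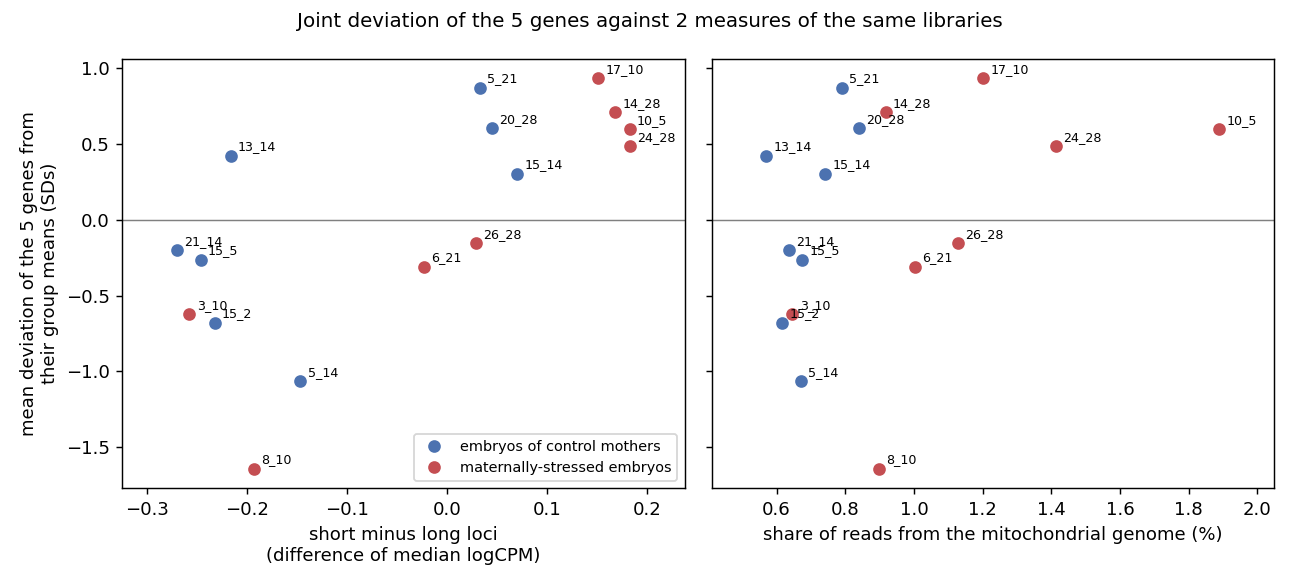
Mean deviation of the 5 genes from their group means (vertical axis, in SDs) against the short minus long balance of each library (left, difference of median logCPM) and the share of reads from the mitochondrial genome (right, %), for clutches of control mothers (blue) and of predator-exposed mothers (red). The exposed clutches line up with the balance (r = 0.89) more closely than with the share (r = 0.54).

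Gene by gene, the correlation with that balance in exposed clutches was 0.90 for MRPS28, 0.85 for MRPL21, 0.66 for NGRN, 0.65 for MRPL48 and 0.55 for MRPL14. In control clutches it was 0.70 for MRPL21, 0.62 for MRPL48, 0.61 for MRPS28, 0.27 for NGRN and −0.08 for MRPL14. With the balance as a covariate all 5 differences by exposure stayed above 0 and became smaller: 0.25 for MRPL14, 0.15 for MRPL48, 0.15 for MRPL21, 0.20 for MRPS28 and 0.26 for NGRN, with 0 of the 5 and 6 of all genes past an FDR of 0.1. The difference of MRPL21 thus moved from 0.31 to 0.15, the most of the 5. The balance itself differed between the groups at the median. As a covariate it takes up part of the exposure contrast, and nothing is read from the calls with it.

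Across all genes with at least 10 CPM, the difference by exposure declined with the span of the locus. Genes were divided by span into 10 bins of equal size. In the shortest bin, up to 1892 nucleotides, which holds MRPL21, MRPL48, MRPS28 and NGRN, the median log2 difference of the other 975 genes was 0.02. In the next bin, which holds MRPL14, it was −0.02, and in the longest bin, from 20816 nucleotides up, it was −0.15. The median correlation with the profile of the 5 genes declined alongside, from 0.06 in the shortest to −0.59 in the longest bin. Against genes of similar span the 5 still stood high: MRPL14 exceeded 98.0% of the genes of its bin, NGRN 94.9%, MRPL21 94.4%, MRPS28 94.1% and MRPL48 88.4%. Having been chosen for that difference, they had to stand high, and the shares are a description. What part the balance of short and long loci has in the difference was not tested. The covariate cannot give that part, since the balance takes up some of the exposure contrast.

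**Figure D5:**
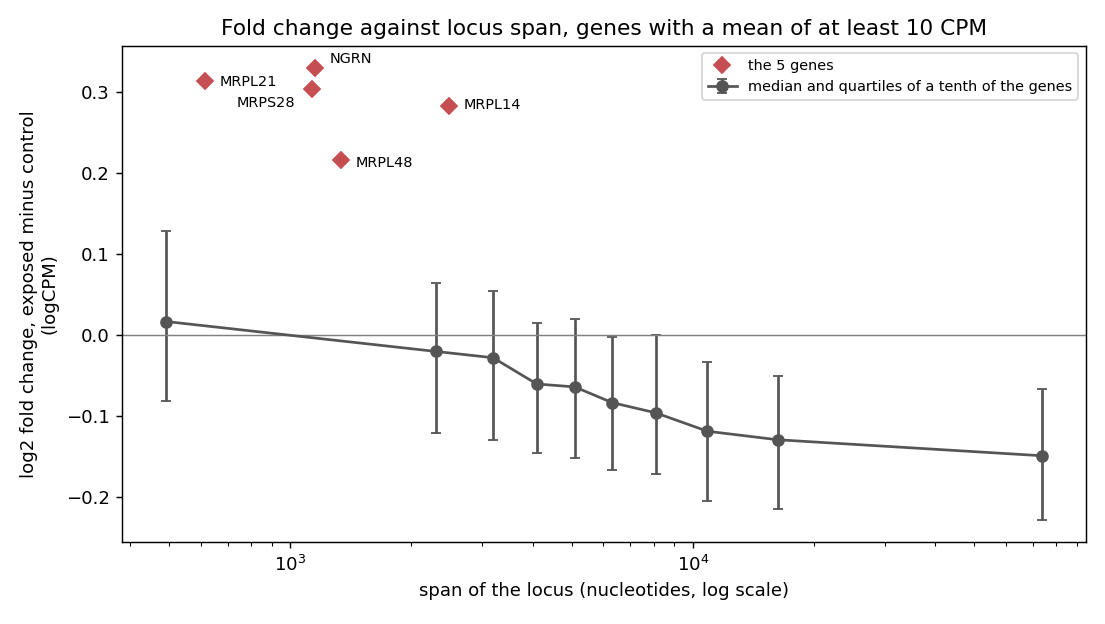
Log2 difference in logCPM between exposed and control clutches (vertical axis) against the span of the locus in nucleotides (horizontal axis, log scale), with the median and quartiles of each of the 10 bins of genes of at least 10 CPM (grey, drawn at the middle of the bin's span on the log scale) and the 5 genes (red). The medians run from 0.02 in the shortest bin to −0.15 in the longest, and all 5 genes lie above the upper quartile of their bin.

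The genes around the 5 were about as often higher as lower in exposed clutches. Of the 30 genes that lie next to them, 3 on each side, 16 were higher in exposed clutches and 0 passed an FDR of 0.1 in either direction by limma; 1 had an unadjusted p under 0.05. That gene was ENSGACG00000019932, which overlaps MRPS28 by 16 nucleotides, with a log2 difference of 0.21 (SE 0.07, adjusted p = 0.191), a level of 95.5 CPM averaged over the 16 clutches and a correlation of 0.72 with MRPS28 over the clutches, group means removed. The 30 differences ran from −0.20 to 0.21 with a median of 0.01, and the median correlation of the 30 genes with the gene they neighbour was −0.16. Over all genes 0.516% passed in either direction, so nothing is read from 0 of 30. Of the 9784 other genes of at least 10 CPM, 29.1% were higher in exposed clutches. Several of the 30 lie below that level, so the 2 shares are not of like genes.

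Of the wider machinery of mitochondrial gene expression few genes could be named. The lists held 50 proteins of the large and 33 of the small mitoribosomal subunit, 22 factors of assembly and ribosomal RNA modification, 16 translation factors, 17 aminoacyl-tRNA synthetases and 21 genes of mitochondrial transcription and messenger RNA stability, and the study's gene list gives symbols for 3, 1, 0, 0, 0 and 2 of them. The rest were not analysed here. Of a list of 6 genes that act with NGRN on the 16S ribosomal RNA, NGRN alone was named. FASTKD3, an RNA-binding protein of mitochondria, held 9.18 ± 1.28 CPM in exposed and 7.15 ± 0.569 CPM in control clutches (SD, n = 8 each), a log2 difference of 0.26 (SE 0.08, limma adjusted p = 0.138), and its correlation with the mean profile of the 5 over the 16 clutches was 0.17. HSD17B10, a subunit of mitochondrial RNase P, held 126 ± 9.11 and 108 ± 7.99 CPM, a log2 difference of 0.22 (SE 0.06, limma adjusted p = 0.120), and correlated at 0.25. Neither passed. Of 80 proteins of the cytosolic ribosome 2 were named, RPL27 (log2 difference 0.25, SE 0.05), which passed, and RPS24 (0.24, SE 0.06), which did not. They correlated with the 5 at 0.68 and 0.73. In their bins of span the medians over genes were −0.03 and −0.19. The study had listed all of these named genes for their difference between the same groups, so their differences are a description. Over all genes 0.103% passed as higher in exposed clutches, and nothing is read from the call of RPL27.

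Depth was even. The libraries held between 8950867 and 12765406 reads in genes (median 11697268), so that 3 reads, the most that a count of 0 allows, correspond to between 0.235 and 0.335 CPM, far below any value of the 5 genes; this covers counting error only. Reads in genes correlated with the mean profile of the 5 at 0.22 in control and −0.15 in exposed clutches (exact permutation p = 0.615 and p = 0.725, both adjusted to 0.725). A set of 27 genes of structured RNA, taken as the mean of their standardised logCPM, was higher in 5 exposed clutches and 1 control clutch than in the rest, and its mean correlated with the profile of the 5 at −0.34 and 0.19 (exact permutation p = 0.440 and p = 0.672, adjusted p = 0.703 and 0.725). These 27 were taken from the study's list of genes that differed between the same groups. Their higher level in exposed clutches is therefore a description, not a separate trait of the libraries. Markers of blood, muscle and eye were detected in every library. The 3 haemoglobin genes with a symbol summed to between 1610 and 3660 CPM in control and between 2937 and 4631 CPM in exposed clutches, the 2 muscle troponins to between 26.4 and 58.1 and between 31.4 and 87.8 CPM, and 13 genes of lens and retina to between 540 and 1155 and between 502 and 1883 CPM. All 18, which the study had listed for their difference between the same groups, were higher in exposed clutches, with median log2 differences of 0.36, 0.30 and 0.28, as large as those of the 5 genes. The embryonic haemoglobin hbbe1.1 differed by 0.52 (SE 0.16). By limma 0 of the 18 passed an FDR of 0.1, and 3 had an unadjusted p under 0.05. Their part in the differences of the 5 genes was not tested. The log2 of each summed CPM correlated with the profile of the 5 at 0.35, −0.07 and −0.19 over the 16 clutches, group means removed. The haemoglobin sum is mostly hbbe1.1, whose means were 2736 CPM in control and 3828 CPM in exposed clutches.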

How the data were processed

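The members and gene lists were chosen with earlier results of these data known. Per the study's methods, the authors selected RNA with oligo(dT), made stranded libraries, used TopHat2 2.0.8 to align reads to the BROADS1 assembly and counted them by Ensembl gene. The logCPM values were deposited by the authors as log2 counts scaled to the library total, with a prior. Whole reads were recovered from them to within 3.8e-09 of a read, and CPM was computed from these reads. The FPKM values were deposited by the authors from Cufflinks 2.1.1, with lower and upper bounds that were used only to place each FPKM.

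The comparison of groups used limma 3.58.1 under R 4.3.3 (intensity trend, two-sided, Benjamini-Hochberg adjustment), on logCPM for 17440 genes and on log2(FPKM + 1) for 21028 gene models with an FPKM above 0 in at least 2 clutches. The fits were tested on simulated data. Correlations used logCPM in Python 3.11.15 with exact permutation over the 40320 pairings of 8 clutches; those pooled over both groups used 100000 resamples within groups. Named genes were the 5 members, list genes past a threshold, and the 5 highest and 5 lowest profile correlations. Of these correlations 2 each are printed because the genes have no symbol. COX7C, RBX1, MED9, NDUFB8, SPCS3, NDUFA4, UQCRQ, RANGRF, UBE2C and COX4I2, FASTKD3, HSD17B10 and RPS24 were added after their values were seen. Clutches were treated as independent; spread within a tank could not be estimated. The alternatives were other scalings, voom, other pseudocounts and filters, clutch weights, covariates, a block on the second number and each clutch left out. Symbols were looked up in the study's list, and all 5 members lie on the chromosome of a RefSeq annotation that carries the other named genes of their linkage group.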

Additional observations from a re-analysis of the deposited data

Results flagged for a closer look

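In MRPL14 the FPKM of exposed clutch 8_10, 57.7, lay far below the other 7 exposed clutches, the next of which stood at 71.8 FPKM. The gap took 0.617 of the range of the group, past Dixon's limit for 8 samples. The structured RNA mean (the mean of 27 standardised logCPM values, in SDs) of control clutch 15_2 was 0.486, with the next control clutch at −0.546, a gap of 0.840 of the range. Chance passes that limit in about 1 of 20 groups, and 30 groups were looked at.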

How the results depend on the processing

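All 220 fold changes of single genes under alternatives stayed above 0, and 217 moved by less than 1 SD between clutches. The other 3 were under median-of-ratios scaling of FPKM, with 0.38 for MRPL14, 0.33 for MRPL48 and 0.39 for NGRN; that scaling moves the median of all models from −0.08 to 0.01. Of all genes, 90 passed an FDR of 0.1 on logCPM, 15 under median-of-ratios scaling, 2491 with clutch weights, 47 with the second number of the label as replicate block, 16 at an FDR of 0.05, and, with covariates chosen after seeing the data, 0 with the structured RNA mean and 6 with the short minus long balance, and between 7 and 1233 with a clutch left out. Of the 4 mitoribosomal genes, 1 passed, 4 with clutch weights, 0 under median-of-ratios scaling, with the replicate block, at an FDR of 0.05 and with either covariate, and 0 to 4 with a clutch left out. On FPKM, 65 models passed, 241 with a pseudocount of 0.1, 207 with a mean FPKM of at least 1, 0 with the short minus long balance and 0 to 1551 with a clutch left out; of the mitoribosomal genes 0 passed, or 0 to 1 with a clutch left out, the 1 being MRPL14 without 8_10. The median pair correlation, 0.48, was 0.80 under median-of-ratios scaling and 0.43 to 0.57 with a clutch left out. The correlation of the members' mean with the mitochondrial share was 0.49 (permutation p = 0.0962). It was 0.59 under median-of-ratios scaling (permutation p = 0.0424), 0.58 on ranks (p = 0.0250) and 0.66 with the structured RNA mean as covariate (p = 0.0100). The sign turned on FPKM, at −0.0455 (permutation p = 0.879), and with the short minus long balance, at −0.11 (p = 0.649). With a clutch left out it was 0.44 to 0.59. These p-values were not adjusted over the settings, and the cause was not tested. The structured RNA mean was made from genes that the study listed for their difference between the groups. As a covariate it holds part of the exposure contrast, so the 0 genes passing with it decide nothing. What that choice adds to the correlation of 0.66 was not tested. The short minus long balance also differed between the groups at the median, and nothing is read from the calls with it. The block uses a label number of unknown meaning that 3 sets of exposed and control clutches share. Effects of the tank cannot be estimated.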
